A study of Homo sapiens with 4 samples.

Results

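The genes of the respiratory chain and of ATP synthase were followed across 4 RNA-Seq libraries of MDA-MB-231 cells. A gene was included when the table calls it protein-coding and its symbol is one of the 13 mitochondrially encoded subunits (ND1 to ND6, ND4L, CYTB, COX1 to COX3, ATP6, ATP8) or starts with NDUF, SDH (SDHA to SDHD), UQCR, COX4 to COX8 or ATP5, holds no hyphen, and has a mean count of at least 10. Of 111 genes with such symbols, 2 read-through genes with a hyphen (ATP5MF-PTCD1 and NDUFC2-KCTD14) and 8 genes under the count minimum were left out. The remaining 101 genes, 13 mitochondrial and 88 nuclear, were described within the 16599 genes that passed the same minimum, of 35993 in the table. The lowest mean count inside the minimum was 37.5 (UQCRHL) and the highest outside it was 5.5 (NDUFA4L2).

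MDA-MB-231 is an established line of triple-negative breast cancer cells. The 4 libraries were siCTGF+KW (CTGF siRNA and 50 µM kahweol for 48 h), siControl+KW (control siRNA and the same kahweol treatment), siCTGF (CTGF siRNA, untreated) and siControl (control siRNA, untreated). Kahweol was given in serum-free medium. It is a diterpene of coffee, and CTGF is a secreted matricellular protein. Every condition was a single library, so no value below has a replicate error, and a single line with a single CTGF siRNA stands for each effect.

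In mammalian cells the respiratory chain passes electrons from NADH and succinate to oxygen and pumps protons across the inner mitochondrial membrane. Complex I takes electrons from NADH, complex II from succinate, complex III hands them to cytochrome c, complex IV reduces oxygen, and complex V (ATP synthase) uses the proton gradient to make ATP. Complex II is built from nuclear genes alone, whereas the other complexes join subunits made inside the mitochondrion from its own circular DNA with subunits imported from the cytosol. The mitochondrial mRNAs arise from long transcripts of the heavy and light strands that are cut at the tRNAs between the genes, so their levels after transcription depend on processing and stability.

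Depth and identity of the libraries were as follows. Total counts ran from 44781516 to 59129784. CCN2, the gene of CTGF, was at 31.8 CPM in siCTGF+KW and 186 CPM in siControl+KW cells, and at 63.6 CPM in siCTGF and 159 CPM in siControl cells, so the target was lower in both siCTGF libraries. VIM, CD44, AXL and MSN, which mark the mesenchymal state of this line, ranged from 264 to 3254 CPM. The labels call the cells epithelial, and of the 5 epithelial and receptor genes examined ESR1 and PGR were below 1 CPM while CDH1, EPCAM and ERBB2 reached up to 74.7 CPM. The 11 markers of leukocytes, endothelium, adipocytes and muscle stayed at or below 1.76 CPM. CPM values, counts scaled to a common library total, carry edgeR's TMM scaling, and log2 fold changes were taken on them with a prior count of 2.

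The mitochondrial genes lie so close that some share bases. The last 46 bases of ATP8 (positions 8366 to 8572 of the mitochondrial chromosome in GRCh37) are the first 46 bases of ATP6 (8527 to 9207), and reads from that stretch cannot be given to either gene alone. It is shown because ATP8 and ATP6 had the lowest fold changes of the mitochondrial mRNAs with kahweol in siControl cells, with the start codon of ATP6 and the stop codon of ATP8 in capitals (sequence from GENCODE 29).
ATP8/ATP6 overlap: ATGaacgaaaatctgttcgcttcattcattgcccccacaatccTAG
The stretch makes up 22.2% of the 207 bases of ATP8. ND4L and ND4 share 7 bases, and ATP6 and COX3 share 1. Below, an mRNA stands for 1 annotated gene. Genes that share bases, and so may lie on 1 transcript, are counted apart, although their values are not independent.

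Levels of the mitochondrial mRNAs spanned a wide range within each library. COX3, a core subunit of complex IV, had 953 TPM in siCTGF+KW and 797 TPM in siControl+KW cells, against 1309 TPM in siCTGF and 1791 TPM in siControl cells. COX1, the subunit that holds the oxygen-reducing site, had 518 TPM in siCTGF+KW and 443 TPM in siControl+KW cells, against 719.9 TPM in siCTGF and 945 TPM in siControl cells. COX2, which accepts electrons from cytochrome c, followed with 83.6 TPM in siCTGF+KW and 70.9 TPM in siControl+KW cells, against 86.0 TPM in siCTGF and 124 TPM in siControl cells. These are the 3 core subunits of complex IV, and the other 10 mRNAs were all at 36.4 TPM or less in every library. ND6, the sole subunit encoded on the light strand, was lowest with 4.76 TPM in siCTGF+KW and 3.93 TPM in siControl+KW cells, against 3.94 TPM in siCTGF and 6.84 TPM in siControl cells. The ratio of the highest to the lowest mRNA was 200.2 in siCTGF+KW, 203 in siControl+KW, 332 in siCTGF and 262 in siControl cells. COX1 and COX3 together held 89.9% of the mitochondrial mRNA counts in siCTGF+KW and 88.7% in siControl+KW cells, against 91.5% in siCTGF and 90.9% in siControl cells. Any sum over the 13 mRNAs is therefore mainly a sum of the counts of COX1 and COX3.

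Part of these genes has copies in the nuclear genome. Of the windows of 100 bases in the longest GENCODE 29 transcript of each mRNA, 27.9% of COX1, 26.1% of ND2, 11.9% of ATP6, 4.38% of COX3 and 2.39% of COX2 also occur letter for letter in an annotated nuclear pseudogene (MTCO1P12, MTND2P28, MTATP6P1, MTCO3P12 and MTCO2P12), as do some of ND1 (MTND1P23). The other 7 mRNAs had no such window, but windows that match apart from some bases and copies outside the annotation were not searched. The sources used here do not state how reads with several matches were counted, so the levels of at least these 6 genes carry that uncertainty. The part of read alignment and counting in the levels and shares above, for any of the 13 genes, and in the differences below was not tested.

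**Figure D1:**
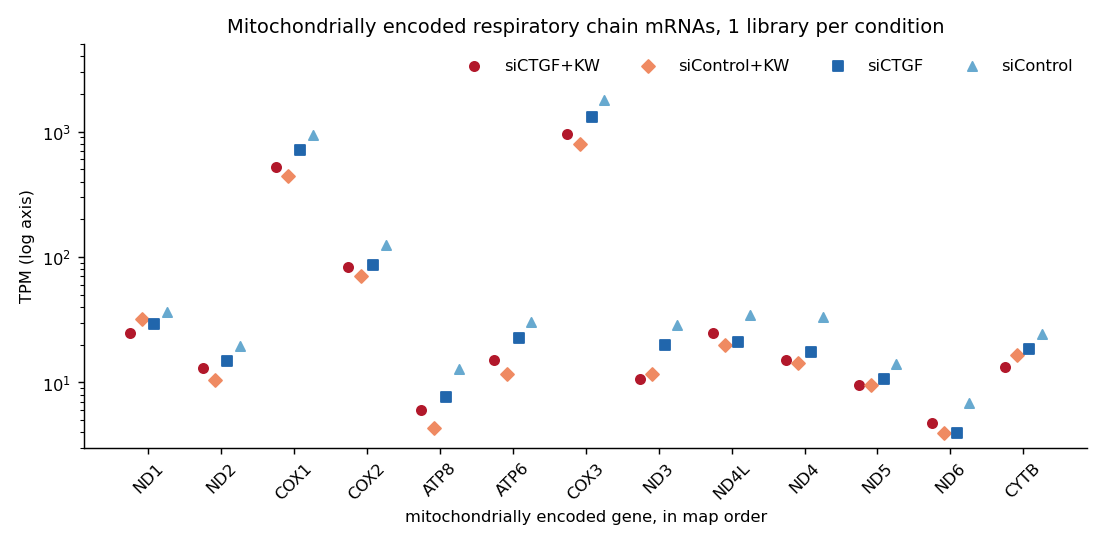
TPM of the 13 mitochondrially encoded mRNAs (log axis) in the order of the genes on the map, 1 point per library, n = 1 per condition. COX1 and COX3 lie between 443 and 1791 TPM, all other genes at or below 124 TPM, and the siControl point is the highest of its gene for 13 of 13 in TPM.

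With kahweol, 12 of the 13 mitochondrial mRNAs were lower in siControl cells and 6 were lower in siCTGF cells. COX1 was at 483 CPM in siCTGF+KW and 388 CPM in siControl+KW cells, against 559 CPM in siCTGF and 707 CPM in siControl cells. COX3 was at 451 CPM in siCTGF+KW and 355 CPM in siControl+KW cells, against 517 CPM in siCTGF and 681 CPM in siControl cells. In both genes the untreated siControl library was the highest and siControl+KW the lowest, and both kahweol libraries lay below both untreated ones. The log2 fold change of COX1 was -0.21 (counting interval -0.25 to -0.18) in siCTGF and -0.86 (counting interval -0.90 to -0.83) in siControl cells, where the interval is an exact 95% interval that covers counting error only. That of COX3 was -0.20 (counting interval -0.23 to -0.16) in siCTGF and -0.94 (counting interval -0.98 to -0.90) in siControl cells. In bulk RNA, fewer cells of a kind and less of an RNA per cell cannot be told apart.

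Over the 13 mRNAs, 2 were past a fold change of 1.3 with kahweol in siCTGF cells (ND4L and ND6) and 1 was under 0.7 (ND3), where 28.4% and 24.2% of all genes tested were. In siControl cells none was over 1.3 and 10 were under 0.7 (76.9%), where 28.1% and 26.3% of all genes tested were. The median log2 fold change was 0.03 in siCTGF cells and -0.66 in siControl cells, against -0.003 and -0.02 over all genes tested. Over the other scalings and units tried it ran from -0.23 to 0.04 in siCTGF and from -0.84 to -0.61 in siControl cells. Fold changes between single libraries have no test here, and the thresholds of 1.3 and 0.7 are those of the study.

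The complex V pair had the lowest kahweol values of the 13 mitochondrial mRNAs in siControl cells. ATP6, which forms the proton channel of ATP synthase, was at 6.24 CPM in siCTGF+KW and 4.51 CPM in siControl+KW cells, against 7.76 CPM in siCTGF and 9.95 CPM in siControl cells. Its log2 fold change was -0.31 (counting interval -0.64 to -0.003) in siCTGF and -1.13 (counting interval -1.48 to -0.80) in siControl cells. ATP8, a small membrane subunit, had 34 counts in siCTGF+KW and 23 counts in siControl+KW cells, against 44 counts in siCTGF and 80 counts in siControl cells, and its log2 fold change was -0.08 (counting interval -1.09 to 0.89) in siCTGF and -1.21 (counting interval -2.27 to -0.24) in siControl cells. The wide intervals of ATP8 follow from these low counts.

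The complex I subunits of the membrane arm had unlike values. ND3 was at 2.23 CPM in siCTGF+KW and 2.29 CPM in siControl+KW cells, against 3.45 CPM in siCTGF and 4.80 CPM in siControl cells, with log2 fold changes of -0.62 in siCTGF and -1.05 in siControl cells, and was the sole mitochondrial mRNA under 0.7 in both comparisons. ND4 was at 12.5 CPM in siCTGF+KW and 11.1 CPM in siControl+KW cells, against 12.1 CPM in siCTGF and 22.2 CPM in siControl cells, and its log2 fold change was 0.04 (counting interval -0.19 to 0.28) in siCTGF and -0.99 (counting interval -1.22 to -0.78) in siControl cells. The high value of ND4 was the untreated siControl library, and the other 3 libraries lay between 11.1 and 12.5 CPM. ND1, the subunit nearest the quinone site, was at 14.3 CPM in siCTGF+KW and 17.3 CPM in siControl+KW cells, against 14.1 CPM in siCTGF and 16.9 CPM in siControl cells, with log2 fold changes of 0.03 in siCTGF and 0.04 in siControl cells. ND1 was thus ordered by siRNA and not by kahweol, with both siControl libraries above both siCTGF libraries. ND2 had log2 fold changes of 0.08 in siCTGF and -0.66 in siControl cells, and ND5 of 0.10 in siCTGF and -0.32 in siControl cells. ND4L had 197 counts in siCTGF+KW and 146 counts in siControl+KW cells, against 170 counts in siCTGF and 309 counts in siControl cells, with log2 fold changes of 0.49 in siCTGF and -0.54 in siControl cells. ND6, from the light strand, had 68 counts in siCTGF+KW and 51 counts in siControl+KW cells, against 57 counts in siCTGF and 109 counts in siControl cells and log2 fold changes of 0.52 in siCTGF and -0.55 in siControl cells. Both genes were under 0.7 in siControl cells and over 1.3 in siCTGF cells, and the counting intervals of ND6 included 0 in each.

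CYTB, the mitochondrial subunit of complex III, was at 9.19 CPM in siCTGF+KW and 10.7 CPM in siControl+KW cells, against 10.7 CPM in siCTGF and 13.5 CPM in siControl cells. Its log2 fold changes were -0.21 in siCTGF and -0.33 in siControl cells, neither past a threshold. COX2 was at 34.5 CPM in siCTGF+KW and 27.6 CPM in siControl+KW cells, against 29.6 CPM in siCTGF and 41.0 CPM in siControl cells, with log2 fold changes of 0.22 in siCTGF and -0.57 in siControl cells.

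**Figure D2:**
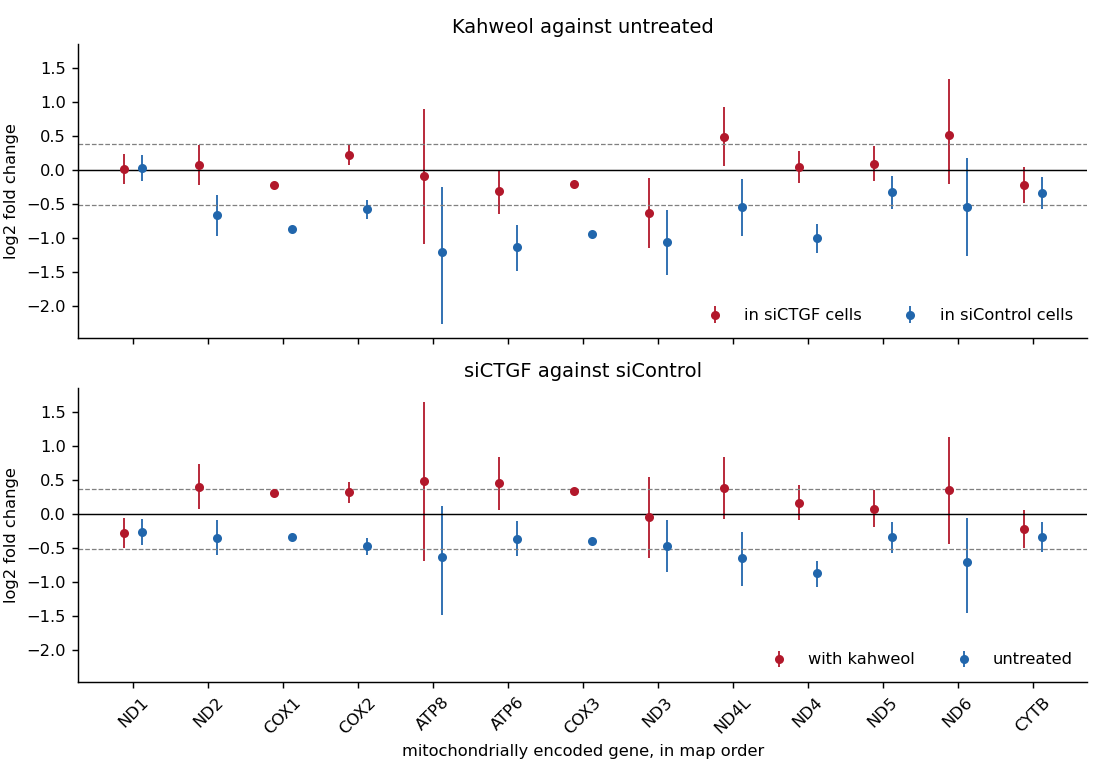
Log2 fold changes of the 13 mitochondrial mRNAs for kahweol against untreated (top) and siCTGF against siControl (bottom), each between single libraries, with 95% counting intervals as bars and the thresholds of 1.3 and 0.7 as dashed lines. In siControl cells 12 of 13 kahweol values lie below 0, in siCTGF cells 6 of 13 do, and without kahweol all 13 siCTGF values lie below 0.

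The fit over all 4 libraries (kahweol against untreated with siRNA as a covariate, the additive fit) called 4 of the 13 mRNAs at an adjusted p under 0.05, all lower, where 22.9% of all genes tested were called higher and 23.6% lower. COX1 fell (log2 fold change -0.54, standard error 0.13, edgeR adjusted p = 0.0132), as did COX3 (log2 fold change -0.57, standard error 0.15, edgeR adjusted p = 0.0165). ATP6 fell as well (log2 fold change -0.72, standard error 0.24, edgeR adjusted p = 0.0384), and so did ND3 (log2 fold change -0.85, standard error 0.29, edgeR adjusted p = 0.0428). The other 9 did not pass. DESeq2 with the same design called none of the 13, and limma-voom called 4. Only 1 residual degree of freedom was left here, and a kahweol effect that depended on the siRNA was counted as noise. The edgeR standard errors and p-values also draw on the spread of all genes tested, not on each gene's own alone. COX1 had a standard error of 0.13, although its kahweol values were -0.21 in siCTGF and -0.86 in siControl cells. All of this spread is among these 4 libraries, which nothing in the labels ties to separate cultures.

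Between the siRNAs, the kahweol values of the mitochondrial mRNAs lay further apart than those of the nuclear members. The log2 fold change in siCTGF minus that in siControl cells had a median of 0.74 over the 13 mRNAs and was positive for 12 of them, ND1 being the exception. Over the 88 nuclear members the median was -0.06, with 35 positive, and over all genes tested it was 0.004. No residual degree of freedom is left to test this difference. The untreated siControl library held the highest CPM for 12 of the 13 mRNAs, and the lowest was siControl+KW for 7, siCTGF for 4 and siCTGF+KW for 2.

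With CTGF siRNA, 10 of the 13 mitochondrial mRNAs had a log2 fold change above 0 with kahweol, while all 13 were below 0 without it. For each gene the gap between these values is the same contrast of the 4 libraries as the gap between the kahweol values above. With kahweol, 4 were over 1.3 (ND2, ND4L, ATP6 and ATP8) and none under 0.7, where 14.7% and 7.83% of all genes tested were. Without kahweol, none was over 1.3 and 4 were under 0.7 (ND4, ND6, ND4L and ATP8), where 9.63% and 8.99% of all genes tested were. The median log2 fold change was 0.33 with kahweol and -0.40 without. COX1 had log2 fold changes of 0.32 with kahweol and -0.34 without, COX3 of 0.35 with kahweol and -0.40 without and ND4 of 0.17 with kahweol and -0.87 without. ND1 and CYTB had negative values in both, -0.27 with kahweol and -0.26 without for ND1 and -0.22 with kahweol and -0.33 without for CYTB. In the additive fit no mitochondrial mRNA passed for siCTGF, where 0.0663% of all genes tested were called higher and 0.0602% lower. With edgeR none was at an unadjusted p under 0.05, against 9.92% of all genes tested. DESeq2 and limma-voom also called none.

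Summed over the 13 genes, mitochondrial mRNA took 0.0976% of all counts in siCTGF+KW (exact binomial interval 0.0963 to 0.0988) and 0.0808% in siControl+KW cells (0.0797 to 0.0820), against 0.123% in siCTGF (0.122 to 0.124) and 0.161% in siControl cells (0.160 to 0.163). Both kahweol libraries lay below both untreated libraries. The exact two-sided permutation test of 2 against 2 libraries gave p = 0.333, which is the smallest value this design allows. For siCTGF, where the groups overlapped, the same exact test gave p = 1. The 88 nuclear members took 0.734% of counts in siCTGF+KW and 0.784% in siControl+KW cells, against 0.878% in siCTGF and 0.879% in siControl cells. The ratio of mitochondrial to nuclear counts, which does not depend on library scaling, was 0.133 in siCTGF+KW and 0.103 in siControl+KW cells, against 0.140 in siCTGF and 0.183 in siControl cells. On the log2 scale the ratio with kahweol differed from that without by -0.07 in siCTGF and -0.83 in siControl cells. Without COX1 and COX3, a choice made after the values were seen, the ratio was 0.0134 in siCTGF+KW and 0.0117 in siControl+KW cells, against 0.0119 in siCTGF and 0.0167 in siControl cells, so that the kahweol libraries no longer lay apart from the untreated ones.

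The mitochondrial rRNAs, which precede the mRNAs in the heavy-strand transcript, were higher in both kahweol libraries. RNR1, the RNA of the small mitochondrial ribosomal subunit, was at 11355 CPM in siCTGF+KW and 8877 CPM in siControl+KW cells, against 5665 CPM in siCTGF and 6065 CPM in siControl cells. RNR2, that of the large subunit, was at 52642 CPM in siCTGF+KW and 36036 CPM in siControl+KW cells, against 24155 CPM in siCTGF and 31251 CPM in siControl cells. Together they took 6.01% of counts in siCTGF+KW and 4.33% in siControl+KW cells, against 3.11% in siCTGF and 3.94% in siControl cells. The number of mitochondrial rRNA counts per mitochondrial mRNA count was 61.6 in siCTGF+KW and 53.6 in siControl+KW cells, against 25.3 in siCTGF and 24.5 in siControl cells. The libraries had been depleted of rRNA, and the part of that step in these values was not tested.

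**Figure D3:**
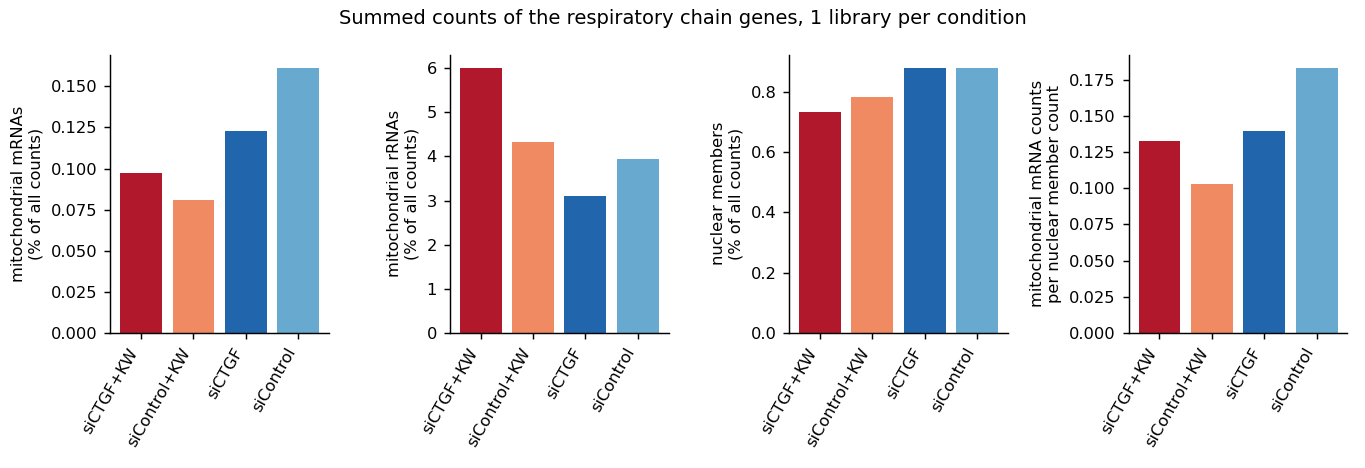
From left to right, the share of counts in mitochondrial mRNAs, in mitochondrial rRNAs and in the nuclear members (% of all counts), and mitochondrial mRNA counts per nuclear member count, 1 bar per library, n = 1 per condition. The mRNA bars are lowest in siControl+KW (0.0808%) and highest in siControl cells (0.161%), and the rRNA bar is highest in siCTGF+KW (6.01%).

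Few nuclear members were past the fold thresholds. With kahweol, 5 of 88 were over 1.3 (5.68%) and 9 under 0.7 (10.2%) in siCTGF cells, and 7 were over 1.3 (7.95%) and 9 under 0.7 (10.2%) in siControl cells, against the background of 28.4% and 24.2% in siCTGF and 28.1% and 26.3% in siControl cells. Nuclear members are abundant genes, and 78 of them had a mean count of at least 1000. Among these, 3.85% were over 1.3 and 7.69% under 0.7 in siCTGF cells and 6.41% and 7.69% in siControl cells, where 25.5% and 16.4%, and 27.9% and 16.2%, of all 7885 genes at that level were, a background chosen after the data were seen. Under total count scaling 2 nuclear members were over 1.3 and 19 under 0.7 in siCTGF cells, and 4 over and 13 under in siControl cells. That scaling moves the median of all genes tested to -0.15 in both comparisons. The shares of all genes past the thresholds under it are not given. The log2 fold changes of the 88 genes had a median of -0.12 in siCTGF cells, between -1.18 (NDUFAF3) and 1.47 (NDUFAF1), and a median of -0.06 in siControl cells, between -1.20 and 1.15 of the same genes. The sign was the same in both comparisons, which share no library, for 76 of 88 nuclear members (86.4%), against 82.9% of all genes tested and 7 of the 13 mitochondrial mRNAs.

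In the additive fit 14 nuclear members rose and 25 fell with kahweol, 44.3% of the 88 in all, against 46.6% of all genes tested. With these main settings the share called was thus near the background. Under total count scaling, which moves the median of all genes tested to -0.15 in both kahweol comparisons, 5 nuclear members rose (COX6A1, NDUFA4, NDUFAF1, NDUFAF4 and NDUFAF5) and 42 fell. The shares of all genes called higher and lower under that scaling are not given, so these counts have no background. DESeq2 called 8 higher and 19 lower, where it called 39.4% of all genes tested. With no covariate 6 rose and 20 fell, where 41.3% of all genes tested were called. With the main settings the calls were spread unevenly over the complexes. Of the nuclear core subunits of complex I, 6 of 7 fell and none rose, of the accessory subunits 6 of 30 fell and 3 rose, and of the complex I assembly factors 2 of 8 fell and 5 rose. In complex II 1 of 4 fell, in complex III 3 of 9 fell and 1 rose, in complex IV 4 of 12 rose and none fell, and in complex V 7 of 18 fell and 1 rose. Whether complexes differ from one another was not tested.

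**Figure D4:**
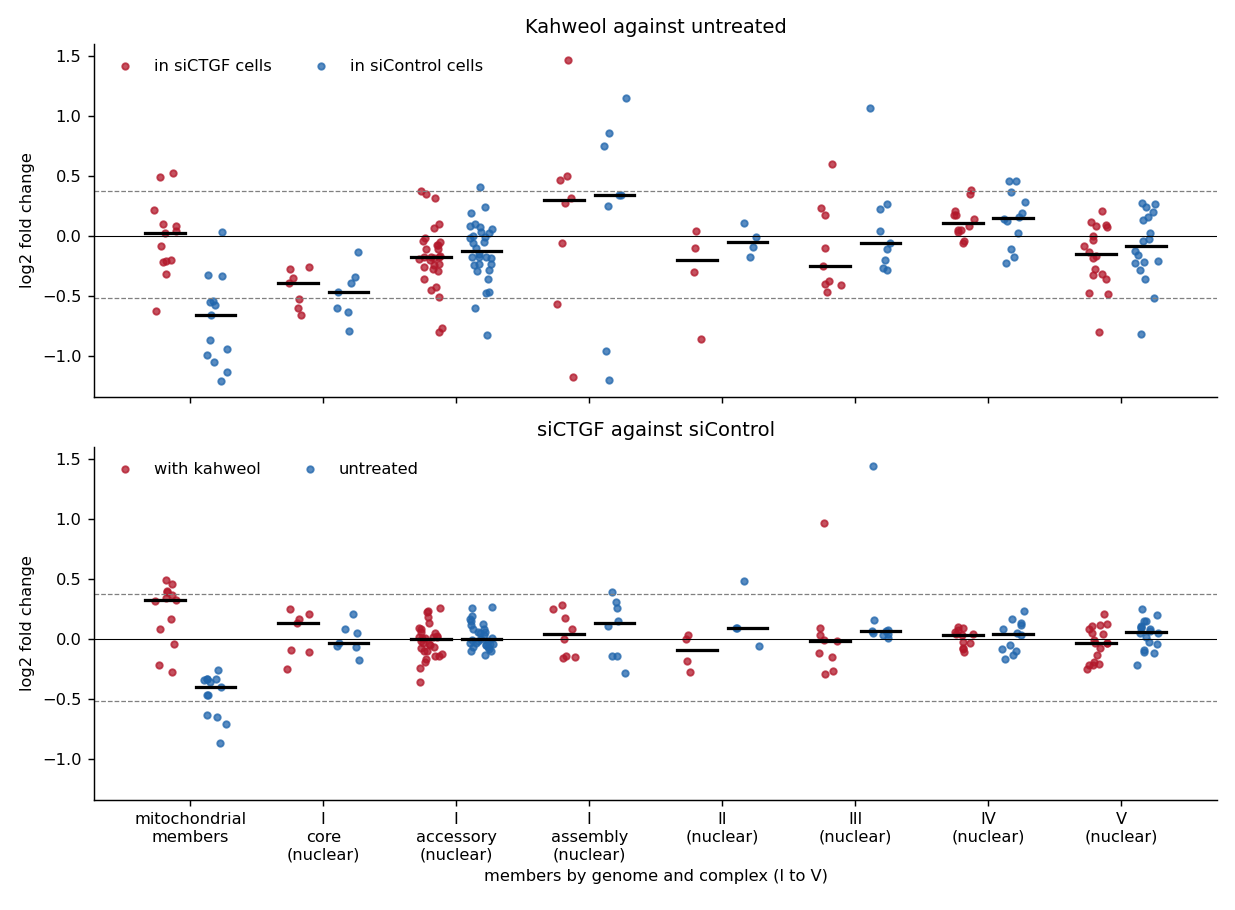
Log2 fold changes of all 101 members between single libraries, by genome and complex, for kahweol against untreated (top) and siCTGF against siControl (bottom). Each point is 1 gene, black bars are medians, and dashed lines are the thresholds of 1.3 and 0.7. The nuclear core subunits of complex I have medians of -0.39 in siCTGF and -0.47 in siControl cells with kahweol, those of complex IV 0.11 and 0.15.

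The nuclear core of complex I binds NADH and carries electrons through flavin and iron-sulfur clusters to ubiquinone. NDUFS8, an iron-sulfur subunit close to the quinone site, was at 54.4 CPM in siCTGF+KW and 49.6 CPM in siControl+KW cells, against 82.7 CPM in siCTGF and 85.9 CPM in siControl cells, and both kahweol libraries lay below both untreated ones. It fell (log2 fold change -0.70, standard error 0.10, edgeR adjusted p = 0.00104), and with log2 fold changes of -0.60 in siCTGF and -0.79 in siControl cells it was the one core subunit under 0.7 in both comparisons. NDUFV1, which holds the flavin that accepts electrons from NADH, was at 131 CPM in siCTGF+KW and 113 CPM in siControl+KW cells, against 171 CPM in siCTGF and 175 CPM in siControl cells. It fell with -0.51 on the log2 scale (edgeR adjusted p = 0.00266). NDUFV2, its iron-sulfur partner, was at 87.4 CPM in siCTGF+KW and 94.3 CPM in siControl+KW cells, against 138 CPM in siCTGF and 131 CPM in siControl cells, and fell (log2 fold change -0.56, standard error 0.09, edgeR adjusted p = 0.00180), although 72.5% of its 100-base windows also occur in other annotated genes, mainly AP005263.1. NDUFS1, the largest iron-sulfur subunit, and NDUFS7, which lies at the quinone site, fell with log2 fold changes of -0.44 and -0.43. NDUFS3, which shares 37.2% of its windows with PTPMT1, had -0.21 and did not pass (edgeR adjusted p = 0.112). All 7 had negative log2 fold changes in both kahweol comparisons, between -0.79 and -0.14. Under total count scaling all 7 fell, NDUFS3 included. That scaling moves the median of all genes tested to -0.15 in both kahweol comparisons, so that count is not free of this shift.

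Accessory subunits surround this core and are needed for its assembly and stability. NDUFV3, a small subunit of the NADH-binding module, was at 29.3 CPM in siCTGF+KW and 25.8 CPM in siControl+KW cells, against 49.8 CPM in siCTGF and 45.7 CPM in siControl cells. It fell (log2 fold change -0.80, standard error 0.09, edgeR adjusted p = 0.000369), with log2 fold changes of -0.76 in siCTGF and -0.82 in siControl cells, and was the one accessory subunit under 0.7 in both comparisons. NDUFA7 was at 13.4 CPM in siCTGF+KW and 17.2 CPM in siControl+KW cells, against 23.5 CPM in siCTGF and 19.6 CPM in siControl cells, with log2 fold changes of -0.80 in siCTGF and -0.19 in siControl cells, and fell in the fit by 0.49 on the log2 scale (edgeR adjusted p = 0.0358), although 71.1% of its windows of 100 bases also occur in the gene AC010323.1. NDUFB2, NDUFA3, NDUFB1 and NDUFAB1, the mitochondrial acyl carrier protein, fell with -0.49, -0.46, -0.45 and -0.36. On the other side, NDUFC2 was at 88.1 CPM in siCTGF+KW and 96.0 CPM in siControl+KW cells, against 69.3 CPM in siCTGF and 72.4 CPM in siControl cells, and rose (log2 fold change 0.38, standard error 0.09, edgeR adjusted p = 0.0114). It shares 13.8% of its windows with the read-through gene NDUFC2-KCTD14. NDUFB11 and NDUFA8, both of the membrane arm, rose with 0.28 and 0.28, calls lost with DESeq2, with no covariate, with no filter and under total count scaling. The median of the 30 accessory genes was -0.18 in siCTGF and -0.13 in siControl cells. NDUFA13 was the accessory mRNA with the highest level in each library, with 228 TPM in siCTGF+KW and 273 TPM in siControl+KW cells, against 321 TPM in siCTGF and 332 TPM in siControl cells.

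The assembly factors of complex I are not part of the finished complex. With the main settings 7 of the 8 named NDUFAF passed the fit, against 46.6% of all genes tested. NDUFAF1, which helps to build the membrane arm, was at 39.3 CPM in siCTGF+KW and 34.8 CPM in siControl+KW cells, against 14.2 CPM in siCTGF and 15.6 CPM in siControl cells. Both kahweol libraries were above both untreated ones, and its log2 fold changes of 1.47 in siCTGF and 1.15 in siControl cells were the highest of the 101 genes in each comparison. It rose (log2 fold change 1.31, standard error 0.12, edgeR adjusted p = 0.000141). NDUFAF3, which acts with NDUFAF4 early in the assembly of the quinone module, was at 10.4 CPM in siCTGF+KW and 8.54 CPM in siControl+KW cells, against 23.6 CPM in siCTGF and 19.7 CPM in siControl cells, and it fell (log2 fold change -1.19, standard error 0.12, edgeR adjusted p = 0.000249). NDUFAF4 was at 39.2 CPM in siCTGF+KW and 43.1 CPM in siControl+KW cells, against 27.6 CPM in siCTGF and 25.6 CPM in siControl cells, and rose (log2 fold change 0.63, standard error 0.10, edgeR adjusted p = 0.00184). The values of these partners had opposite signs in both comparisons, -1.18 in siCTGF and -1.20 in siControl cells for NDUFAF3 and 0.50 in siCTGF and 0.75 in siControl cells for NDUFAF4. NDUFAF5, which hydroxylates the core subunit NDUFS7, was at 19.5 CPM in siCTGF+KW and 21.6 CPM in siControl+KW cells, against 15.7 CPM in siCTGF and 11.9 CPM in siControl cells, and rose (log2 fold change 0.59, standard error 0.15, edgeR adjusted p = 0.0152). NDUFAF8, its binding partner, was at 13.8 CPM in siCTGF+KW and 11.6 CPM in siControl+KW cells, against 20.4 CPM in siCTGF and 22.5 CPM in siControl cells, and fell (log2 fold change -0.76, standard error 0.14, edgeR adjusted p = 0.00299). NDUFAF6 and NDUFAF7, a methyltransferase, rose with 0.41 and 0.31. These calls were lost with DESeq2, with no covariate, with no filter and under total count scaling. Under each of these settings 3 assembly factors rose and 2 fell. NDUFAF2 had 0.09 and did not pass (edgeR adjusted p = 0.515).

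Complex II, which also belongs to the citric acid cycle, had 1 call. SDHA, its flavoprotein, was at 152 CPM in siCTGF+KW and 172 CPM in siControl+KW cells, against 186 CPM in siCTGF and 194 CPM in siControl cells, and fell (log2 fold change -0.24, standard error 0.08, edgeR adjusted p = 0.0392), a call that neither DESeq2 nor a fit with no covariate kept. SDHB, the iron-sulfur subunit, had log2 fold changes of -0.10 in siCTGF and -0.01 in siControl cells and SDHD, a membrane anchor, of 0.04 in siCTGF and 0.11 in siControl cells. SDHC, the other anchor, was at 19.1 CPM in siCTGF+KW and 23.2 CPM in siControl+KW cells, against 34.7 CPM in siCTGF and 24.7 CPM in siControl cells. The untreated siCTGF library was its highest, and its log2 fold change with kahweol was -0.86 (counting interval -1.03 to -0.69) in siCTGF and -0.09 (counting interval -0.26 to 0.07) in siControl cells.

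Complex III passes electrons from ubiquinol to cytochrome c. UQCRFS1, the Rieske iron-sulfur protein, was at 118 CPM in siCTGF+KW and 131 CPM in siControl+KW cells, against 156 CPM in siCTGF and 151 CPM in siControl cells, and fell (log2 fold change -0.30, standard error 0.09, edgeR adjusted p = 0.0231). UQCR11, a small subunit, fell with -0.38 and UQCRC1, a core protein of the matrix side, with -0.26. UQCRB, which lies near the quinone site, rose with 0.25 (edgeR adjusted p = 0.0334). UQCRH, the hinge protein, had the highest level of the complex, 369.6 TPM in siCTGF+KW and 396 TPM in siControl+KW cells, against 392 TPM in siCTGF and 401 TPM in siControl cells, and log2 fold changes of 0.18 in siCTGF and 0.23 in siControl cells. UQCRHL, a retrocopy of UQCRH, had 58 counts in siCTGF+KW and 28 counts in siControl+KW cells, against 46 counts in siCTGF and 18 counts in siControl cells. It was over 1.3 in both kahweol and both siCTGF comparisons and did not pass the fit. Its parent was far more abundant. UQCRH was at 125 CPM in siCTGF+KW and 126 CPM in siControl+KW cells, against 110.5 CPM in siCTGF and 108 CPM in siControl cells. UQCRHL shares 3.80% of its windows with UQCRH, and UQCRH shares 0.68% with UQCRHL. For siCTGF, UQCRHL had log2 fold changes of 0.97 with kahweol and 1.44 without, and UQCRH had -0.01 and 0.04. Whether reads of the parent were counted for UQCRHL was not tested, and its low counts leave these values uncertain. CYC1, the heme subunit of complex III whose symbol lies outside the rule, was at 137 CPM in siCTGF+KW and 144 CPM in siControl+KW cells, against 206 CPM in siCTGF and 197 CPM in siControl cells, and fell (log2 fold change -0.52, standard error 0.08, edgeR adjusted p = 0.00131). CYCS, cytochrome c itself, had log2 fold changes of -0.11 in siCTGF and 0.02 in siControl cells with kahweol and 0.26 with kahweol and 0.40 without for siCTGF.

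In complex IV 4 of 12 nuclear subunits rose and none fell, 33.3% called against 46.6% of all genes tested. The mitochondrial subunits COX1 and COX3 fell in the same edgeR fit. DESeq2 called 3 of the nuclear subunits higher and neither COX1 nor COX3 (DESeq2 adjusted p = 0.211 and 0.260). COX6A1 was at 262 CPM in siCTGF+KW and 283 CPM in siControl+KW cells, against 206 CPM in siCTGF and 219 CPM in siControl cells, and rose (log2 fold change 0.36, standard error 0.07, edgeR adjusted p = 0.00437). NDUFA4, first described in complex I and now counted as a subunit of complex IV, was at 57.9 CPM in siCTGF+KW and 54.3 CPM in siControl+KW cells, against 44.4 CPM in siCTGF and 39.5 CPM in siControl cells, rose (log2 fold change 0.42, standard error 0.09, edgeR adjusted p = 0.00663) and was over 1.3 in both comparisons (0.38 in siCTGF and 0.46 in siControl cells). COX7B and COX7A2L, which joins complexes III and IV into supercomplexes, rose with 0.30 and 0.25. Under total count scaling COX6A1 and NDUFA4 rose, 1 complex IV gene fell and the calls of COX7B and COX7A2L were lost. The other 8 nuclear subunits lay between -0.14 (COX5B) and 0.17 (COX5A) in the fit and did not pass. Thus in siControl cells the mitochondrial subunits COX1, COX2 and COX3 had log2 fold changes of -0.86, -0.57 and -0.94 with kahweol, while the 12 nuclear subunits ranged from -0.23 to 0.46. In siCTGF cells the 3 mitochondrial subunits had -0.21, 0.22 and -0.20, and the nuclear ones ranged from -0.06 to 0.38.

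Of the tissue isoforms of complex IV, those of other tissues were at or near 0. COX6A1, COX8A and COX7C had the highest levels, and COX6A1 had 807 TPM in siCTGF+KW and 927 TPM in siControl+KW cells, against 761 TPM in siCTGF and 840.3 TPM in siControl cells. COX8A had 685 TPM in siCTGF+KW and 699 TPM in siControl+KW cells, against 794 TPM in siCTGF and 925 TPM in siControl cells. The ubiquitous forms COX4I1, COX6B1 and COX7A2 had kahweol log2 fold changes of 0.17 in siCTGF and 0.14 in siControl cells for COX4I1, 0.03 in siCTGF and 0.13 in siControl cells for COX6B1 and -0.05 in siCTGF and -0.11 in siControl cells for COX7A2, and did not pass. The heart and muscle forms COX6A2 and COX7A1 and the forms COX4I2, COX7B2 and COX8C had no count in any library, which allows up to 0.0480 to 0.0695 CPM (3 counts) per library. COX6B2 had 7 counts in siCTGF+KW and 0 in siControl+KW cells, against 0 in siCTGF and 4 in siControl cells. NDUFA4L2, the hypoxia-induced relative of NDUFA4, had 8 and 0 counts in the siCTGF+KW and siControl+KW libraries, against 10 and 4 in the siCTGF and siControl libraries.

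Complex V makes ATP in its catalytic head, which a central stalk turns on a ring of c subunits. ATP5MC1, ATP5MC2 and ATP5MC3 encode the same mature c subunit, and only ATP5MC1 of the 3 passed. ATP5MC1 was at 35.0 CPM in siCTGF+KW and 38.4 CPM in siControl+KW cells, against 61.2 CPM in siCTGF and 55.1 CPM in siControl cells, fell (log2 fold change -0.66, standard error 0.10, edgeR adjusted p = 0.00150) and was under 0.7 in both comparisons. ATP5MC2 was at 80.3 CPM in siCTGF+KW and 80.5 CPM in siControl+KW cells, against 82.0 CPM in siCTGF and 79.1 CPM in siControl cells, and ATP5MC3 at 137 CPM in siCTGF+KW and 164 CPM in siControl+KW cells, against 156 CPM in siCTGF and 168 CPM in siControl cells. ATP5MC2 had log2 fold changes of -0.03 in siCTGF and 0.03 in siControl cells and ATP5MC3 of -0.18 in siCTGF and -0.04 in siControl cells. Of the head and stalk, ATP5F1A (alpha) was at 616 CPM in siCTGF+KW and 704 CPM in siControl+KW cells, against 771 CPM in siCTGF and 821 CPM in siControl cells, and fell (log2 fold change -0.27, standard error 0.06, edgeR adjusted p = 0.00927), ATP5F1C (gamma) fell with -0.34 and ATP5F1D (delta) with -0.65. ATP5F1B (beta, the catalytic subunit) was at 813 CPM in siCTGF+KW and 939 CPM in siControl+KW cells, against 763 CPM in siCTGF and 774 CPM in siControl cells with 0.19 in the fit (edgeR adjusted p = 0.0575). ATP5F1E (epsilon) rose with 0.24, a call lost with DESeq2, with no covariate, with no filter and under total count scaling. ATP5PB, ATP5PD and ATP5PO of the peripheral stalk fell with -0.24, -0.28 and -0.29. ATP5IF1, the inhibitor of ATP hydrolysis, had log2 fold changes of 0.001 in siCTGF and -0.02 in siControl cells.

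**Figure D5:**
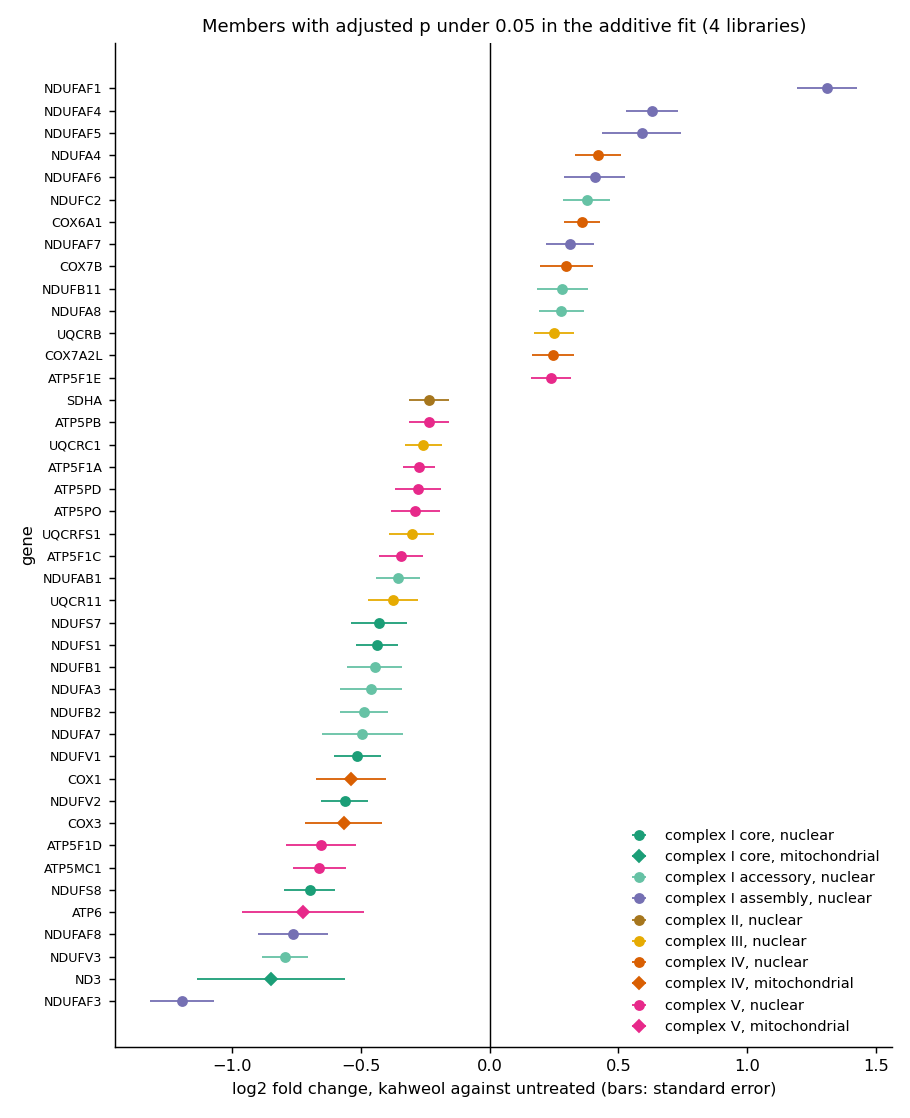
Log2 fold changes of 42 of the 43 members with an adjusted p under 0.05 in the additive fit of kahweol against untreated (edgeR, 4 libraries), with standard errors as bars, colours for complexes, circles for nuclear and diamonds for mitochondrial genes. Values run from -1.19 (NDUFAF3) to 1.31 (NDUFAF1), 14 above 0 and 28 below.

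With CTGF siRNA no nuclear member passed the test. With kahweol 1 of 88 was over 1.3 (UQCRHL) and none under 0.7, where 14.7% and 7.83% of all genes tested were. Without kahweol 3 were over 1.3 (UQCRHL, SDHC and NDUFAF5) and none under 0.7, where 9.63% and 8.99% of all genes tested were. NDUFAF5 had log2 fold changes of -0.15 with kahweol and 0.40 without, and SDHC of -0.28 with kahweol and 0.49 without. Among accessory subunits, NDUFB8 had -0.15 with kahweol and -0.13 without, NDUFB5 had 0.26 with kahweol and 0.17 without and NDUFA12 had -0.19 with kahweol and -0.10 without. The lowest values were -0.36 for NDUFA7 with kahweol and -0.29 for NDUFAF6 without. The sign was the same with and without kahweol for 43 of 88 (48.9%), against 56.1% of all genes tested. None of the 88 passed the additive fit with edgeR, DESeq2 or limma-voom. With edgeR 1 was at an unadjusted p under 0.05, against 9.92% of all genes tested. The medians were -0.005 with kahweol and 0.05 without.

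Promoter sequence was available for 74 of the 88 nuclear members, as windows of 250 bases before and 50 after each annotated start (RefSeq, GRCh38.p14). Nuclear respiratory factor NRF1, ETS factors such as GABP and the factor YY1 are known regulators of these genes, and their core letters GCGCANGCG (NRF1), CCGGAAG (ETS) and ATGGCGGC (YY1) were searched on both strands, where a match on one strand may overlap one on the other. Of the 92 windows of these members, 26.1% held the NRF1 letters, 27.2% the ETS letters and 16.3% the YY1 letters. The shares over all 35116 windows were 7.52%, 10.3% and 3.00%, and over the windows of protein-coding genes tested 11.9%, 15.9% and 4.96%. Among windows of members lower with kahweol the shares were 30.0%, 20.0% and 23.3%, and among those of members higher with kahweol 25.0%, 16.7% and 8.33%, from 30 and 12 windows. Some genes have more than 1 window, and these can overlap. By gene, 9, 5 and 5 of 23 lower members and 3, 2 and 1 of 11 higher members held the letters. A match is a string of letters, not a bound site.
The windows of 3 members that rose (COX6A1, NDUFAF4 and NDUFAF1) and of 1 that fell (NDUFS8) are shown, 5′ to 3′ on the strand of the gene, to set genes with and without such letters side by side. Capitals mark matches, and NDUFAF1 holds none.
COX6A1 (chr12:120437863-120438162, + strand): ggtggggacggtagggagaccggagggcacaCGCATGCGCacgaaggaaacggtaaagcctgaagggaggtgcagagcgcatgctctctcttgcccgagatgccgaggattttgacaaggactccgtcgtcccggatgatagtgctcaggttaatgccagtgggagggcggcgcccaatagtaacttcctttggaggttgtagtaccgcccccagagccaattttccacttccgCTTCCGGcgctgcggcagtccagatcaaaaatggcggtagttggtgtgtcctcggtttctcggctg
NDUFAF4 (chr6:96897842-96898141, - strand): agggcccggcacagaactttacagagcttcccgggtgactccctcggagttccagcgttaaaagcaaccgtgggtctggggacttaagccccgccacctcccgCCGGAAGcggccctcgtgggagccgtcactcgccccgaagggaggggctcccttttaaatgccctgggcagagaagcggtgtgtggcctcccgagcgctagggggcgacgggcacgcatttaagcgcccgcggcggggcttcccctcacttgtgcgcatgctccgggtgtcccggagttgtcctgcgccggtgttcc
NDUFAF1 (chr15:41402447-41402746, - strand): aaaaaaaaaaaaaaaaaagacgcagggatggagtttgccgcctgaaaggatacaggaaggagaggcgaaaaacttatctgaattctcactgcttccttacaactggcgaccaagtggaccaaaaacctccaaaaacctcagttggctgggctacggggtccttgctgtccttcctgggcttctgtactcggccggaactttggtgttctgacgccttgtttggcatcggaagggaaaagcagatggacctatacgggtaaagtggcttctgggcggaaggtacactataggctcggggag
NDUFS8 (chr11:68030431-68030730, + strand): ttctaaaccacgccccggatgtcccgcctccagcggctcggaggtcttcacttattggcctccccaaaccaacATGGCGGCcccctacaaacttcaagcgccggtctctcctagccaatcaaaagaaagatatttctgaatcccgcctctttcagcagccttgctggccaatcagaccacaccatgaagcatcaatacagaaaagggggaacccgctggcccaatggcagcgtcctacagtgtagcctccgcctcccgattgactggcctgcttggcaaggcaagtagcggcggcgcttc
In COX6A1 the capitals near the start of the window are NRF1 letters and those near its end ETS letters. In NDUFAF4 they are ETS letters and in NDUFS8 YY1 letters.

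The genes of these regulators were themselves measured. NRF1 was at 17.6 CPM in siCTGF+KW and 26.2 CPM in siControl+KW cells, against 14.0 CPM in siCTGF and 15.1 CPM in siControl cells, and rose (log2 fold change 0.56, standard error 0.14, edgeR adjusted p = 0.0129). GABPB1, the beta subunit of GABP, was at 67.9 CPM in siCTGF+KW and 75.2 CPM in siControl+KW cells, against 43.8 CPM in siCTGF and 39.9 CPM in siControl cells, and rose (log2 fold change 0.77, standard error 0.11, edgeR adjusted p = 0.000861), while GABPA, its DNA-binding subunit, had log2 fold changes of 0.12 in siCTGF and 0.40 in siControl cells and did not pass. PPRC1, a coactivator of the PGC-1 family, and YY1 rose with 0.54 and 0.38. ESRRA, the orphan receptor ERR-alpha, was at 67.9 CPM in siCTGF+KW and 57.0 CPM in siControl+KW cells, against 80.7 CPM in siCTGF and 84.8 CPM in siControl cells, and fell (log2 fold change -0.41, standard error 0.11, edgeR adjusted p = 0.0174). PPARGC1A (PGC-1 alpha) was low, at 2.93 CPM in siCTGF+KW and 2.57 CPM in siControl+KW cells, against 2.55 CPM in siCTGF and 2.93 CPM in siControl cells, and PPARGC1B and GABPB2 did not pass. ESRRG had no count in any library. Of the 9 regulators tested, 4 rose and 1 fell.

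Assembly factors beyond the NDUFAF symbols were counted by list. Of 10 further complex I factors, 1 rose and 5 fell, and ACAD9, a partner of NDUFAF1, was under 0.7 in both comparisons (-0.97 in siCTGF and -0.91 in siControl cells), as were COA1 (-0.73 in siCTGF and -0.67 in siControl cells) and NUBPL (-0.77 in siCTGF and -0.62 in siControl cells), which delivers iron-sulfur clusters to complex I. Of 26 complex IV factors, 5 rose and 9 fell. COA7 (0.63 in siCTGF and 0.61 in siControl cells), COX19 (0.57 in siCTGF and 0.41 in siControl cells) and COX10 (0.40 in siCTGF and 0.66 in siControl cells), which makes heme O for the complex, were over 1.3 in both, and COX18 (-0.85 in siCTGF and -0.69 in siControl cells), COA3 (-1.05 in siCTGF and -0.62 in siControl cells) and COX20 (-0.60 in siCTGF and -0.63 in siControl cells) were under 0.7. Of 14 factors of complexes II, III and V, 3 rose and 4 fell, with TMEM70 (0.54 in siCTGF and 0.54 in siControl cells) and SDHAF1 (0.52 in siCTGF and 0.46 in siControl cells) over 1.3 and UQCC2 (-1.07 in siCTGF and -1.04 in siControl cells), LYRM7 (-0.98 in siCTGF and -0.78 in siControl cells) and SDHAF4 (-0.66 in siCTGF and -0.92 in siControl cells) under 0.7 in both.

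The genes that copy, transcribe and process mitochondrial DNA moved both ways. Of 19 genes of transcription and maintenance, 4 rose and 5 fell. The replicative helicase TWNK was at 51.1 CPM in siCTGF+KW and 46.7 CPM in siControl+KW cells, against 27.0 CPM in siCTGF and 24.1 CPM in siControl cells, with log2 fold changes of 0.92 in siCTGF and 0.95 in siControl cells. The transcription factor TFB2M was at 44.3 CPM in siCTGF+KW and 39.8 CPM in siControl+KW cells, against 24.9 CPM in siCTGF and 24.7 CPM in siControl cells, with log2 fold changes of 0.83 in siCTGF and 0.69 in siControl cells. TFB1M, which methylates the small rRNA, was at 7.72 CPM in siCTGF+KW and 9.21 CPM in siControl+KW cells, against 16.2 CPM in siCTGF and 16.8 CPM in siControl cells, with -1.06 in siCTGF and -0.86 in siControl cells, and MPV17 had -0.69 in siCTGF and -0.62 in siControl cells. Of 18 genes of mitochondrial RNA processing, 3 rose and 5 fell. FASTKD5, needed to mature mitochondrial mRNAs that have no tRNA beside them, was at 131 CPM in siCTGF+KW and 133 CPM in siControl+KW cells, against 71.0 CPM in siCTGF and 66.4 CPM in siControl cells, with log2 fold changes of 0.88 in siCTGF and 1.00 in siControl cells. SUPV3L1, the helicase of the mitochondrial RNA degradosome, had 0.72 in siCTGF and 0.75 in siControl cells, and TRMT10C, a subunit of mitochondrial RNase P, had 0.38 in siCTGF and 0.56 in siControl cells, while FASTK had -0.56 in siCTGF and -0.69 in siControl cells.

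Among other mitochondrial genes, 8 of 78 mitochondrial ribosomal proteins rose and 24 fell, with MRPL44 (0.58 in siCTGF and 0.53 in siControl cells) among the higher and MRPL42 (-0.89 in siCTGF and -0.77 in siControl cells) among the lower ones. Of 20 genes of pyruvate entry and the citric acid cycle, 1 rose and 7 fell, and IDH2, the mitochondrial NADP-linked isocitrate dehydrogenase, was at 23.2 CPM in siCTGF+KW and 21.3 CPM in siControl+KW cells, against 47.5 CPM in siCTGF and 62.0 CPM in siControl cells, with log2 fold changes of -1.03 in siCTGF and -1.54 in siControl cells. SUCLG2 and PDHB were under 0.7 in both comparisons too (-1.16 in siCTGF and -1.02 in siControl cells for SUCLG2). Of 12 chaperones and proteases, 3 rose and 6 fell, with CLPX (0.92 in siCTGF and 0.90 in siControl cells) over 1.3 and the chaperone TRAP1 (-0.75 in siCTGF and -0.74 in siControl cells) under 0.7 in both. Set beside the 46.6% of all genes tested that the fit called, it called 75% of the chaperones and proteases, 6 of the 10 further complex I factors, 55.6% of the regulators, 53.8% of the complex IV factors, 7 of the 14 factors of complexes II, III and V, 47.4% of the transcription and maintenance genes, 44.4% of the RNA processing genes, 41.0% of the ribosomal proteins and 8 of the 20 citric acid cycle genes. Of the 208 genes of all lists none passed for siCTGF with edgeR, and 9 (4.33%) were at an unadjusted p under 0.05, against 9.92% of all genes tested.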

How the data were processed

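Total RNA of 4 MDA-MB-231 samples, 1 library per condition, was sequenced as paired reads after ribosomal RNA depletion with a stranded kit. The submitters' processing notes name FastQC 0.11.7, Trimmomatic 0.38, HISAT2 2.1.0, Bowtie2 2.3.4.1, StringTie 2.1.3b and GRCh37.p13. The authors deposited 1 table with StringTie's estimated counts per gene, not normalized and used here as deposited whole numbers, and FPKM, TPM and coverage values of the same genes. FPKM and TPM values deposited by the authors were scaled for gene length and library size, and the coverage signal, the mean depth over a gene that the authors deposited, was not used.

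The members and gene lists were chosen with earlier results of these data known. Only genes whose counts averaged 10 or more over the libraries entered. Log2 fold changes between single libraries used TMM-scaled CPM with a prior count of 2, and folds over 1.3 or under 0.7 were counted. Counting intervals are exact 95% intervals that take 2 counts as 1 fragment, since paired reads are not independent. The additive fit (siRNA and kahweol, 4 libraries, 1 residual degree of freedom) used edgeR 4.0.16 quasi-likelihood tests on the estimated counts with Benjamini-Hochberg adjustment over all genes kept. The code was checked on simulated data in which few genes changed and no kahweol effect depended on the siRNA. That check does not show whether the calls made here hold. DESeq2 1.42.0 and limma 3.58.1 were alternatives, as were other scalings, filters, prior counts, units and thresholds. Levels of different genes were compared in TPM. The values of 1 member are not reported here, though the counts include it. Members named in the text are all 13 mitochondrial genes, all genes past the additive fit, the extremes of each complex, genes past a threshold in both comparisons of a treatment, and isoforms. Regulators were all described, and genes of the other lists were named, at most 3 per direction, among those past a threshold in both kahweol comparisons, in the order of the smaller of their absolute changes. R 4.3.3 and Python 3.11.15 were used.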

Additional observations from a re-analysis of the deposited data

Results flagged for a closer look

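The 4 conditions gave a pair of log2 fold changes of opposite direction for ND4L, with kahweol 0.49 in siCTGF and -0.54 in siControl cells, values 1.04 apart. ND6 had 0.52 in siCTGF and -0.55 in siControl cells, values 1.07 apart. The median of the 13 mitochondrial mRNAs, 0.03 in siCTGF and -0.66 in siControl cells, was 0.69 apart. For the siCTGF effect ND4L had values of opposite direction with and without kahweol that were 1.04 apart, and those of ATP8 were 1.12 apart. The median over the mitochondrial mRNAs, 0.33 with kahweol and -0.40 without, was 0.72 apart. Each pair comes from the same 4 libraries, 1 per condition, so the kahweol and siCTGF values of a gene are 1 contrast seen from both sides, and none of these differences was tested.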

How the results depend on the processing

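No call of a named member changed direction under the alternatives run. Values near 0 did change sign: the mitochondrial median for kahweol in siCTGF cells, 0.03 with the main settings, was -0.13 under total count scaling, -0.23 in TPM and -0.14 in FPKM, and the nuclear median for siCTGF untreated, 0.05, was -0.012 in TPM. The log2 difference of the mitochondrial to nuclear ratio with kahweol in siCTGF cells, -0.07, was 0.16 without COX1 and COX3. Of the counts, medians, shares and ratios followed, 82 stayed within their limits and 46 moved. No paired analysis was possible because each condition is 1 library with no replicate number, and leaving out a library was not run because the additive fit then has no residual degree of freedom. The additive kahweol count of 43 was 27 with DESeq2, which called 39.4% of all genes tested, against 46.6% with edgeR. DESeq2 lost the calls of COX1, COX3, ATP6, ND3, NDUFA3, NDUFA7, ATP5PB, ATP5PO and SDHA among others that fell. It lost NDUFA8, NDUFB11, NDUFAF6, NDUFAF7, COX7B and ATP5F1E among those that rose. With no covariate 13 calls were lost, with no filter 8 and under total count scaling 9, and in each of these NDUFA8, NDUFB11, NDUFAF6, NDUFAF7, COX7B, COX7A2L, UQCRB and ATP5F1E were lost. With log2(TPM + 1) the median of all genes moved to -0.18 in siCTGF and -0.17 in siControl cells for kahweol.

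At folds of 1.5 and 1/1.5, mitochondrial mRNAs past the threshold numbered 1 for kahweol in siCTGF cells and 0 for siCTGF with kahweol, and nuclear members 9 for kahweol in siCTGF cells and 1 for siCTGF untreated. Under total count scaling the mitochondrial counts were 1 and 2, with log2(FPKM + 1) they were 1 and 0, and with log2(TPM + 1) the siCTGF count with kahweol was 1. Nuclear members past the threshold for kahweol in siCTGF cells numbered 32 in TPM and 22 in FPKM, and for siCTGF untreated 1 in TPM. Nuclear siCTGF counts were 5 untreated and 3 with kahweol with no filter, and 0 with kahweol at a mean count of at least 50. The median difference between the kahweol comparisons over nuclear members was -0.078 with total count scaling, -0.071 with median-of-ratios scaling, -0.035 with no filter, -0.090 in TPM and -0.12 in FPKM, and over the mitochondrial mRNAs 0.67 in FPKM.

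The mitochondrial mRNA share of protein-coding counts was 0.1105% in siCTGF+KW and 0.0894% in siControl+KW cells, against 0.133% in siCTGF and 0.175% in siControl cells. Without mitochondrial rRNA and tRNA in the total it was 0.104% and 0.0845% with kahweol, against 0.127% and 0.168% without, in the same order of siRNAs. Without COX1 and COX3, added after the data were seen, it was 0.00982% and 0.00914%, against 0.0105% and 0.0146%. The mitochondrial to nuclear ratio in summed TPM was 0.136 and 0.107, against 0.143 and 0.188. Without assembly factors it was 0.137 and 0.106, against 0.143 and 0.187, and without COX1 and COX3 it was 0.0134 and 0.0117, against 0.0119 and 0.0167. Low counts limited ATP8, ND6 and UQCRHL most.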

Other observations

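Mitochondrial tRNA counts, which enter no comparison above, summed to 884 in siCTGF+KW and 627 in siControl+KW cells, against 896 in siCTGF and 1053 in siControl cells. Among marker genes of other tissues, CDH5 of endothelium was at 9 counts in siCTGF+KW and 8 counts in siControl+KW cells, against 79 counts in siCTGF and 110 counts in siControl cells. PLIN1 of adipocytes was at 66 counts in siCTGF+KW and 44 counts in siControl+KW cells, against 17 counts in siCTGF and 15 counts in siControl cells.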
